A study of Mus musculus with 18 samples.

Results

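The 10 genes Bmp2, Bmp4, Bmp5, Grem1, Nog, Id1, Id2, Id3, Smad6 and Smad7 of bone morphogenetic protein (BMP) signalling were followed in 18 mouse RNA-seq libraries. They were taken by gene symbol from all 3 tables of the study, with transcripts summed per gene, and all 10 were found among the 25980 genes that the tables share. Genotypes were compared in 3 settings, each with 3 sgNAT10 libraries and 3 wild-type libraries. The settings were MCA205 cells in culture, TC1 cells in culture, and subcutaneous TC1 tumours harvested on day 8. The label sgNAT10 names a guide RNA against Nat10, whose protein places N4-acetylcytidine on RNA, and wild-type cells of the same line or tumours grown from them were the controls. MCA205 is a mouse fibrosarcoma line. The labels call TC1 fibrosarcoma as well, although it is known as a line of lung epithelial origin that carries papillomavirus oncogenes. No title names separate sgNAT10 clones, so the guide's effect and any other drift between the edited and unedited cells cannot be told apart.

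BMPs are secreted ligands that bind paired serine/threonine kinase receptors, which phosphorylate SMAD1 and SMAD5 so that these enter the nucleus with SMAD4. Among the best known direct targets are the Id genes, whose products bind basic helix-loop-helix factors and keep them off DNA, and Smad6 and Smad7, whose products inhibit the pathway in turn. Gremlin 1 and noggin are secreted proteins that bind BMP ligands and keep them from their receptors, and gremlin 1 is widely made by fibroblasts, tumour stroma included.

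The promoters of 4 of the genes are shown because each of these genes changed sharply in 1 setting or carries a sequence read by SMAD proteins. RefSeq windows of 300 bases, from 250 before to 50 after the RefSeq gene start, were at hand for 6 of the 10 genes. The RefSeq starts of Bmp4, Bmp5, Grem1 and Smad6 lay within 2 bases of the gene starts in the deposited tables. Those of Id3 and Id2 lay 325 and 1048 bases inside the gene as the tables place it, so both of these windows fall wholly within the listed gene. Capitals mark GGCGCC, a GC-rich word that BMP-activated SMADs can bind, or GTCTAGAC, the palindromic SMAD binding element. Both words read the same on either strand and do not overlap each other here. All sequences run 5′ to 3′ on the strand of the gene.
Grem1 (GRCm38.p6, chr2:113758599-113758898, minus strand): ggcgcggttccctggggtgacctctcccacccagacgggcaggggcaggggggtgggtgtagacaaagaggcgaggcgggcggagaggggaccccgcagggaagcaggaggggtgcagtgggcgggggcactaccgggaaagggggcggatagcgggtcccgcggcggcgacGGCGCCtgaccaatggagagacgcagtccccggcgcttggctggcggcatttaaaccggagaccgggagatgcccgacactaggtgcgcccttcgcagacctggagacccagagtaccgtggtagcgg
Bmp5 (GRCm38.p6, chr9:75775115-75775414, plus strand): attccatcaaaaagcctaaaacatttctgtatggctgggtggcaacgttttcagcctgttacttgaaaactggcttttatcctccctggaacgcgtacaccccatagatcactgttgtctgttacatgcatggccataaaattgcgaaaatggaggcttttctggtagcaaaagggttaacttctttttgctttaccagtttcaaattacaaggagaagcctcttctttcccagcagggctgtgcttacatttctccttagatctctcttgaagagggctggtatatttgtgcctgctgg
Id3 (GRCm38.p6, chr4:136143572-136143871, plus strand): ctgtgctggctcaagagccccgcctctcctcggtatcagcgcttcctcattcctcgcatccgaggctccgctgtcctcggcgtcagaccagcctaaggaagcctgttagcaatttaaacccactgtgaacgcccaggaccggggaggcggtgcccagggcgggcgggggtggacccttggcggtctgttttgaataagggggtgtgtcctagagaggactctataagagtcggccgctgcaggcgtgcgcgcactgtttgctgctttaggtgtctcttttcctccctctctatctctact
Smad6 (GRCm38.p6, chr9:64022010-64022309, minus strand): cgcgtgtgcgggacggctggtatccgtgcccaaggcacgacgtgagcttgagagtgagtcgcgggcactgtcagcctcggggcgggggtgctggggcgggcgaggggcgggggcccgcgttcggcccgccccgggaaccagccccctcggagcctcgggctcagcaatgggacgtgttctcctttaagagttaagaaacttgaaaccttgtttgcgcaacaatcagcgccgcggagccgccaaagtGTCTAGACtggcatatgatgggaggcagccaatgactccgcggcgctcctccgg
GGCGCC was found in 11.9% of the 32851 mouse promoters in the table and GTCTAGAC in 0.213%. The Grem1 promoter held 1 GGCGCC, 78 bases before the RefSeq start, and 28 CpG sites, more than 85.8% of all promoters. Smad6 held 1 GTCTAGAC and 31 CpG sites. The Id3 promoter held 19 CpG sites and neither word, and the Bmp5 promoter held 4 CpG sites, against a median of 7 over all promoters. Of the promoters not printed, that of Id2 held 21 CpG sites and 1 GGCGCC, 231 bases before its RefSeq start, and that of Bmp4 held 12 CpG sites and neither word.

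Library totals lay between 51661298 and 78501790 estimated counts, and the 10 most abundant genes took 4.56% to 6.10% of a library. The Nat10 transcript was not called as changed in any setting. Its log2 differences between sgNAT10 and wild-type libraries were 0.00 in MCA205 cells, -0.22 in TC1 cells and -0.22 in tumours, with adjusted p of 0.984, 0.161 and 0.336 by edgeR, so transcript levels do not check the labels. Some libraries held transcripts of other tissues. The summed level of 12 intestine genes was 149, 1.68 and 172 FPKM in the sgNAT10 MCA205 libraries and 6.89, 441 and 186 FPKM in the wild-type ones. By their low sums sgNAT10 library 2 and wild-type library 1 stood apart. Wild-type MCA205 library 2, the highest, also held 102 FPKM over 6 skeletal muscle genes and 19.5 FPKM over 5 adipocyte genes. Every other MCA205 library held at most 3.14 and 5.20 FPKM of these lists. The summed level of 8 liver genes was 746 to 918 FPKM in the sgNAT10 TC1 cell libraries and 543 to 914 FPKM in the wild-type ones. The 8 epithelial markers summed to 50.4 to 87.4 FPKM in sgNAT10 TC1 cells and 35.3 to 167 FPKM in wild-type TC1 cells. Of these markers, Krt5, Sftpc and Nkx2-1 alone were below 1 FPKM in every TC1 cell library.

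Levels of the members spanned a wide range and differed between lines, between cells and tumours and, for several genes, between genotypes. On the FPKM scale, which is per length and per library, Grem1 was the most abundant member in 5 of the 6 groups and Id1 in sgNAT10 TC1 cells. Nog was at 0.0634 FPKM or less in all 18 libraries, with 0 to 8 estimated counts each, and passed the filter on low counts in no setting. The 8 Nog libraries without a count allow levels of up to 0.0205 to 0.0303 FPKM at 3 counts, for counting error alone. The other 9 genes passed the filter in each setting. The tables may have been scaled separately, so orders of levels across settings are descriptions.

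**Figure D1:**
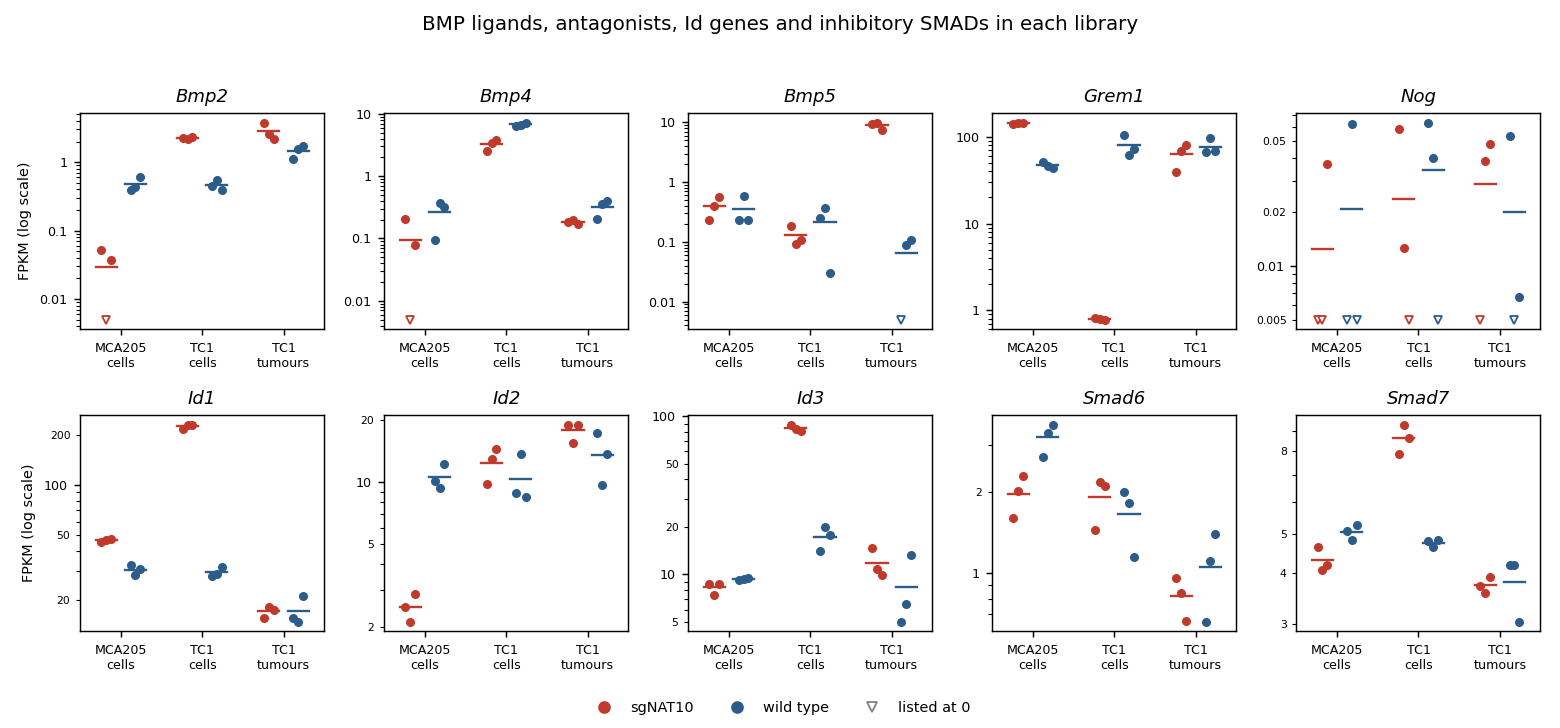
FPKM (log scale) of the 10 genes in each library, with sgNAT10 libraries in red left of wild-type libraries in blue for MCA205 cells, TC1 cells and TC1 tumours; dots are libraries, bars are means of 3 and open triangles are libraries listed below 0.005 FPKM. Grem1 sits near 0.8 FPKM in the sgNAT10 TC1 cells alone, where Id1 and Id3 are at their highest, and Bmp5 stands out in the sgNAT10 tumours.

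In TC1 cells, Id1, Id3, Bmp2 and Smad7 rose and Grem1 and Bmp4 fell with sgNAT10. A gene counted as changed at a Benjamini-Hochberg adjusted p under 0.05 by edgeR over all genes tested. Thus 6 of the 9 genes tested were called, 4 higher and 2 lower, where 37.9% of all 18823 genes tested were called, 15.9% higher and 22.0% lower. In 6 of the 10 genes the FPKM of the 3 sgNAT10 libraries did not overlap those of the 3 wild-type libraries, as in 50.8% of all genes tested.

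MCA205 cells gave another set of changes, in which Grem1 and Id1 rose and Id2, Smad6 and Bmp2 fell. Of the 9 genes tested 5 were called, 2 higher and 3 lower, where 40.6% of 18101 genes were called, 21.2% higher and 19.4% lower. The groups did not overlap in 7 of the 10 genes, as in 52.6% of all genes tested. The member count was 3 without wild-type library 3, where Bmp2 and Smad6 were lost, and 6 without sgNAT10 library 2 and wild-type library 1 together, where Bmp4 was added.

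In the day 8 tumours, Bmp5 and Bmp2 rose and no member fell. By edgeR 0 members were lower at an adjusted or an unadjusted p under 0.05, and 0 by DESeq2 or limma-trend. The risers were 2 of the 9 genes tested, where 17.4% of 19244 genes were called, 7.65% higher and 9.72% lower. With library size alone as the scaling, the tumour calls over all genes were 1505 higher and 1223 lower, against 1473 higher and 1870 lower with TMM factors, and the median log2 difference of all genes moved to 0.13 from 0.02. The groups did not overlap in 3 of the 10 genes, as in 40.4% of all genes tested. The median log2 difference of the 9 genes was -0.22 in MCA205 cells, 0.35 in TC1 cells and -0.12 in tumours, and the medians of all genes were -0.03, -0.08 and 0.02.

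**Figure D2:**
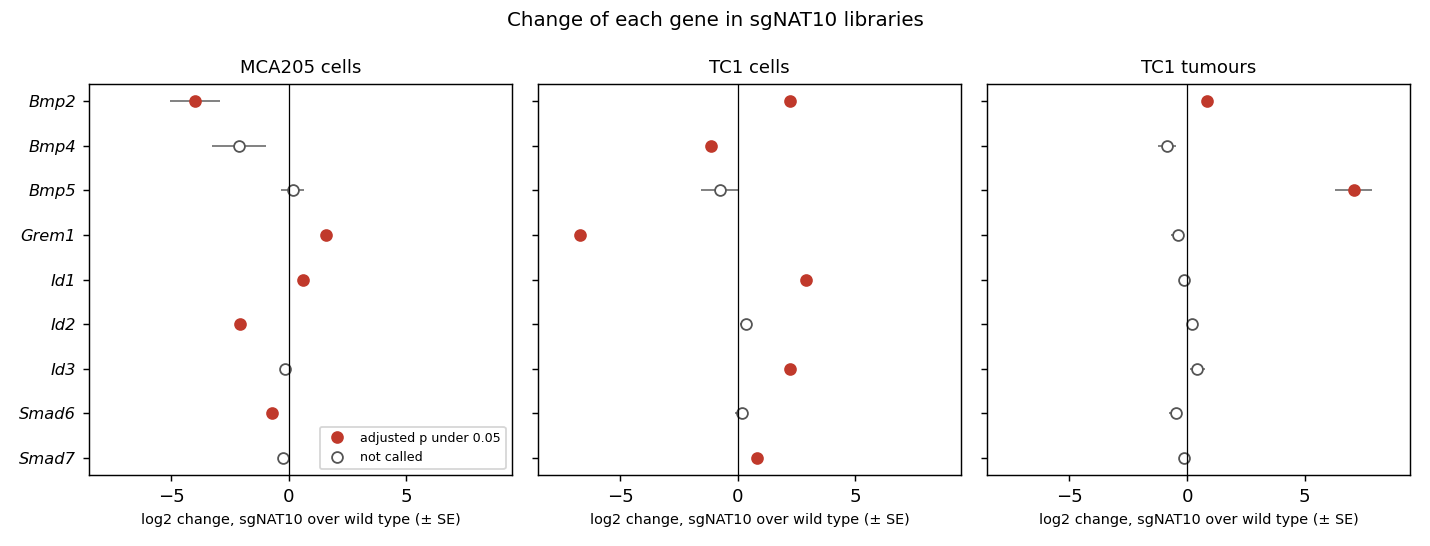
Log2 difference of sgNAT10 over wild type for the 9 genes tested in each setting, with bars of ± 1 SE from the edgeR fit; filled dots are genes at an adjusted p under 0.05. Grem1 lies at 1.61 in MCA205 cells, -6.70 in TC1 cells and -0.39 in tumours, and Bmp5 at 7.08 in tumours.

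The ligand Bmp2, a potent inducer of bone and cartilage, moved in opposite directions in the cell lines. TC1 cells held 2.26, 2.21 and 2.30 FPKM in the sgNAT10 libraries and 0.447, 0.551 and 0.395 FPKM in the wild-type libraries. All sgNAT10 libraries lay above all wild-type ones, and the rise was 2.23 ± 0.19 on the log2 scale (SE; adjusted p = 0.000242). In MCA205 cells Bmp2 was listed at 0.0516, 0 and 0.0366 FPKM with sgNAT10, against 0.391, 0.438 and 0.615 FPKM in wild type. These values rest on 11, 0 and 9 estimated counts in sgNAT10 libraries and 91, 106 and 128 in wild-type libraries, and the groups did not overlap. The log2 difference was -3.99 ± 1.05 (adjusted p = 0.0215), and the call was lost without sgNAT10 library 1, sgNAT10 library 3 or wild-type library 3, with adjusted p of 0.0525, 0.0727 and 0.0716.

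In tumours Bmp2 had 3.78, 2.55 and 2.20 FPKM in sgNAT10 samples and 1.11, 1.56 and 1.69 FPKM in wild-type samples. The groups did not overlap, and sgNAT10 tumour 1 was the highest. The rise of 0.87 ± 0.24 on the log2 scale (adjusted p = 0.0487) was lost whichever library was left out, with adjusted p from 0.0589 to 0.145. The effect of sgNAT10 on Bmp2 differed between MCA205 and TC1 cells by -6.29 ± 1.03 (log2, adjusted p = 0.000761) and between TC1 tumours and TC1 cells by -1.43 ± 0.31 (adjusted p = 0.0055). Both tests of a difference use the same 6 TC1 cell libraries, here and for the genes below. Over all genes these tests called 36.0% of 20272 and 28.2% of 20706 genes.

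Bmp4, a ligand close in sequence to Bmp2, went the other way from Bmp2 in TC1 cells. Its FPKM there were 2.54, 3.43 and 3.81 with sgNAT10, against 6.44, 6.70 and 7.24 in wild type. The groups were apart, and Bmp4 fell by 1.13 on the log2 scale (SE 0.15; adjusted p = 0.00148). Cultured TC1 cells of both genotypes held the highest levels of Bmp4 in the study, since every MCA205 and tumour library was at 0.405 FPKM or less.

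In MCA205 cells Bmp4 was at 0.203, 0 and 0.0787 FPKM with sgNAT10 and at 0.0944, 0.370 and 0.322 FPKM in wild type. The groups overlapped, and the lowest library of each genotype was the one with the least intestine transcript, sgNAT10 library 2 and wild-type library 1. The log2 difference of -2.10 ± 1.16 was not called (adjusted p = 0.203). Without those 2 libraries it was -1.88 with an adjusted p of 0.0309, and the part of intestine transcripts in it was not tested further. Tumours had 0.187, 0.201 and 0.172 FPKM with sgNAT10 and 0.204, 0.358 and 0.405 FPKM in wild type, a log2 difference of -0.86 ± 0.39 that was not called (adjusted p = 0.166) although the groups were apart.

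Bmp5, a BMP ligand of the same subgroup as BMP6 and BMP7, was the member with the largest difference in tumours. The sgNAT10 tumours held 9.49, 9.89 and 7.58 FPKM, against 0, 0.0873 and 0.107 FPKM in wild-type tumours. In estimated counts these were 2387, 2308 and 1945 in sgNAT10 tumours and 0, 23 and 28 in wild-type tumours. The groups were far apart, and the rise of 7.08 ± 0.79 on the log2 scale (adjusted p = 0.00418) was called without any 1 of the libraries, with values from 6.48 to 7.64.

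Outside the sgNAT10 tumours Bmp5 was low throughout. MCA205 cells had 0.233, 0.398 and 0.560 FPKM with sgNAT10 and 0.229, 0.592 and 0.229 FPKM in wild type (log2 0.18 ± 0.49, adjusted p = 0.808). TC1 cells had 0.185, 0.0909 and 0.107 FPKM with sgNAT10 and 0.251, 0.364 and 0.0295 FPKM in wild type (log2 -0.77 ± 0.78, adjusted p = 0.493). The genotypes overlapped in both lines. The effect in tumours exceeded that in TC1 cells by 7.77 ± 1.25 (log2, adjusted p = 0.000999), while the effects in MCA205 and TC1 cells differed by 0.87 ± 1.0 (adjusted p = 0.555).

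Several marker lists moved with Bmp5 in the tumours. The 8 liver genes summed to 411, 445 and 440.3 FPKM in sgNAT10 tumours and to 1.40, 38.4 and 166 FPKM in wild-type tumours. The 11 intestine genes listed there summed to 86.3, 107 and 82.4 FPKM in sgNAT10 tumours and to 2.00, 43.3 and 62.6 FPKM in wild-type tumours. Of these genes, Vil1, Cdx1 and Muc2 were below 1 FPKM in every sgNAT10 tumour but not in every wild-type tumour. Fabp2 was below 1 FPKM in every wild-type tumour alone, and Cdx2 and Reg3b in every tumour of both genotypes. In cultured TC1 cells liver sums were 543 FPKM or more and intestine sums 351 FPKM or more in every library. Bmp5 was at 0.364 FPKM or less there. The part of liver and intestine transcripts in the Bmp5 difference between tumours was not tested. The 8 endothelial markers summed to 89.3 to 99.5 FPKM in sgNAT10 tumours and 46.9 to 59.7 FPKM in wild-type tumours, with Tek alone below 1 FPKM in every library of both. Sums of 6 skeletal muscle markers were 85.4 to 131 FPKM with sgNAT10 and 20.3 to 26.0 FPKM in wild type. Sums of 5 adipocyte markers were 53.3 to 66.6 and 20.7 to 38.7 FPKM in the same order of genotypes. Of the adipocyte list, Plin1, Cidec and Lep were below 1 FPKM in every tumour of both genotypes, and Adipoq in every wild-type tumour. The wild-type adipocyte sum thus rests mainly on Fabp4. Sums of the 8 pericyte and smooth muscle markers were lower with sgNAT10, at 39.7 to 53.2 FPKM against 62.1 to 88.3 FPKM in wild type. Of that list, Notch3 was below 1 FPKM in every tumour of both genotypes and Myh11 in every sgNAT10 tumour. Abcc9 ran against the sum, below 1 FPKM in every wild-type tumour but not in every sgNAT10 tumour. Sums of the fibroblast markers, 815 to 1051 and 467 to 1075 FPKM, and of the macrophage markers, 703 to 801 and 547 to 956 FPKM, overlapped between sgNAT10 and wild-type tumours. Reg3b of the intestine list was at 0 in all 3 sgNAT10 tumours, and no other marker of these lists was at 0 in every library of a genotype. The part of these cells in the tumour results was not tested, and in whole tumours more cells of a type cannot be told apart from more RNA per cell.

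Grem1 encodes gremlin 1, which binds BMP2 and BMP4 and blocks them, and it showed the largest drop among the members. In TC1 cells the sgNAT10 libraries held 0.802, 0.794 and 0.779 FPKM, against 105, 61.9 and 73.0 FPKM in wild type. The estimated counts behind these levels were 204, 211 and 208 with sgNAT10 and 29282, 15080 and 19292 in wild type. Every sgNAT10 library lay below every wild-type library, and Grem1 fell by 6.70 on the log2 scale (SE 0.23; adjusted p = 1.03e-05), a 104-fold lower level. In MCA205 cells Grem1 was high in both genotypes, at 140.3, 147 and 144 FPKM with sgNAT10 and 51.9, 46.0 and 43.8 FPKM in wild type. Here the sgNAT10 libraries lay above the wild-type ones, a rise of 1.61 ± 0.07 (log2, adjusted p = 7.65e-06) or 3.05-fold.

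The tumours showed neither of these differences. Grem1 was at 39.5, 69.1 and 81.3 FPKM in sgNAT10 tumours and 66.4, 97.0 and 68.0 FPKM in wild-type tumours. The groups overlapped, with a log2 difference of -0.39 ± 0.28 (adjusted p = 0.361). Thus sgNAT10 tumours held 39.5 FPKM or more where sgNAT10 TC1 cells held at most 0.802 FPKM. The effect of sgNAT10 on Grem1 was 8.25 ± 0.24 higher on the log2 scale in MCA205 than in TC1 cells (adjusted p = 6.17e-09), and 6.24 ± 0.41 higher in TC1 tumours than in TC1 cells (adjusted p = 3.61e-06).

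Ordered by mean level, Grem1 was highest in sgNAT10 MCA205 cells at 144 ± 3.14 FPKM (SD, n = 3 for each group) and apart from the next group. Tumours ranked in the middle, at 63.3 ± 21.5 FPKM with sgNAT10 and 77.1 ± 17.2 FPKM in wild type. Wild-type TC1 cells, at 80.0 ± 22.5 FPKM, came just above both tumour groups, and wild-type MCA205 cells, at 47.3 ± 4.18 FPKM, just below both. Each of these 4 groups overlapped its neighbour among them in the order of means. The sgNAT10 TC1 cells came last at 0.792 ± 0.0117 FPKM, apart from all others. Sums of the fibroblast markers moved the same way as Grem1 in both lines. The 8 genes of that list summed to 11.3 to 16.3 FPKM in sgNAT10 TC1 cells and 138 to 177 FPKM in wild-type TC1 cells, and to 239 to 246 FPKM in sgNAT10 MCA205 cells and 86.9 to 106 FPKM in wild-type MCA205 cells. Of the list, Lum and Pi16 were below 1 FPKM in every library of both lines and none was at 0 in a whole group. Dpt was below 1 FPKM in every sgNAT10 library of both lines, but not in every wild-type library of either line. In MCA205 cells Dpt thus did not go with the higher sum in sgNAT10 libraries. The part of the fibroblast genes in the Grem1 result was not tested.

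The genes whose group means followed Grem1 most closely were Mmp2, Zfp979 and Il1rl1. They were chosen over 6 group means among 4675 genes by the root mean square difference in centred log2(FPKM + 1), which was 0.71, 0.79 and 0.90. Mmp2, a gelatin-degrading metalloproteinase, averaged 0.651 FPKM in sgNAT10 TC1 cells and 14.9 FPKM in wild-type TC1 cells, and 83.5 FPKM in sgNAT10 MCA205 cells and 29.9 FPKM in wild-type MCA205 cells. Il1rl1, the receptor for interleukin 33, averaged 0.672 FPKM in sgNAT10 TC1 cells and 89.2 FPKM in wild-type TC1 cells. These likenesses rest on the same libraries and are descriptions.

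Grem1 lies on chromosome 2 from 113746164 to 113758646 (mm10, minus strand), between Fmn1 and Scg5. Fmn1, which encodes the actin nucleator formin 1, lies 29397 bases away on the side of lower coordinates. In TC1 cells Fmn1 had 0.608, 0.212 and 0.278 FPKM with sgNAT10 and 4.16, 2.72 and 2.80 FPKM in wild type. It fell with Grem1 there, by 3.18 on the log2 scale (SE 0.32; adjusted p = 0.000423), and the groups were apart. In MCA205 cells, where Grem1 rose, Fmn1 differed by -0.06 ± 0.06 (adjusted p = 0.463), and in tumours by 0.05 ± 0.16 (adjusted p = 0.844). The effect on Fmn1 was 3.07 ± 0.32 higher in MCA205 than in TC1 cells (adjusted p = 3.51e-05) and 3.17 ± 0.36 higher in tumours than in TC1 cells (adjusted p = 0.000113). Scg5, 17716 bases away on the other side, had 0.0828, 0.824 and 1.01 FPKM in sgNAT10 TC1 cells and 0.433, 0.359 and 0.112 FPKM in wild-type TC1 cells, which overlapped (log2 1.01 ± 0.85, adjusted p = 0.401).

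**Figure D3:**
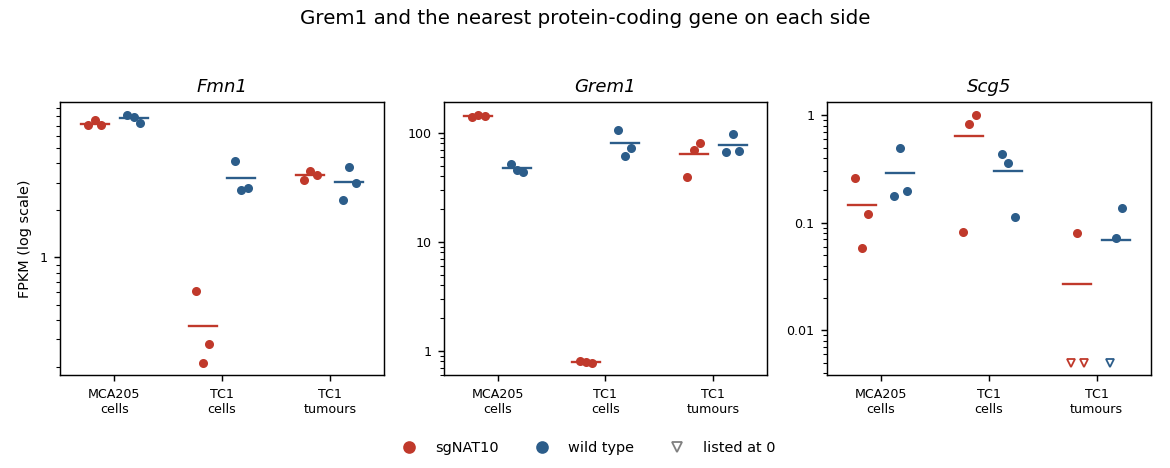
FPKM (log scale) of Grem1 and of the nearest protein-coding gene on each side, by library, with sgNAT10 in red left of wild type in blue; bars are means of 3 and open triangles are libraries listed below 0.005 FPKM. Fmn1 averages 0.366 FPKM in sgNAT10 TC1 cells and 3.22 FPKM in wild-type TC1 cells, while Scg5 overlaps between genotypes in each setting.

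Of the 20 nearest protein-coding genes on the 2 sides of the 10 members, 15 were tested in TC1 cells and 10 called, 16 in MCA205 cells and 10 called, and 16 in tumours and 4 called. These are 66.7%, 62.5% and 25.0% of the neighbours tested, beside 37.9%, 40.6% and 17.4% of all genes tested. The called neighbours of the ligand genes included Hao1 beside Bmp2, with log2 differences of 0.86 in TC1 cells and 1.47 in MCA205 cells, and Cdkn3 beside Bmp4, with -0.48 in TC1 cells, -0.93 in MCA205 cells and -1.08 in tumours. Among neighbours of the Id genes, H13 beside Id1 was called at 0.62 in TC1 cells and 0.16 in MCA205 cells. E2f2 beside Id3 was called at -0.56 in TC1 cells, 0.53 in MCA205 cells and -1.22 in tumours. After Fmn1, no called neighbour in TC1 cells differed by more than 0.86 in size. Calls of Cdkn3 and E2f2 in TC1 cells, of H13 in MCA205 cells and of Cdkn3 in tumours were lost under at least 1 left-out library.

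Id1, an inhibitor of helix-loop-helix factors and a standard readout of BMP signalling, gave the strongest rise among the members in TC1 cells. It was at 218, 232 and 231 FPKM with sgNAT10 and at 28.2, 29.0 and 31.9 FPKM in wild type. All sgNAT10 libraries were above all wild-type ones, with a rise of 2.92 ± 0.07 on the log2 scale (adjusted p = 3.45e-06), or 7.56-fold. In MCA205 cells the levels were 45.2, 46.2 and 47.0 FPKM with sgNAT10 and 32.8, 28.6 and 30.8 FPKM in wild type. The groups were apart there too, and the rise was 0.60 ± 0.06 (log2, adjusted p = 0.000335), or 1.51-fold. Tumours held 15.7, 18.3 and 17.6 FPKM with sgNAT10 and 15.7, 14.9 and 21.3 FPKM in wild type. These overlapped, with a log2 difference of -0.12 ± 0.16 (adjusted p = 0.622).

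The Id1 effect differed by -2.37 ± 0.11 on the log2 scale between MCA205 and TC1 cells (adjusted p = 1.18e-07) and by -3.10 ± 0.17 between tumours and TC1 cells (adjusted p = 1.34e-06). Endothelial cells are rich in Id1. In sgNAT10 TC1 cells the endothelial list summed to 17.1 to 18.8 FPKM, against 11.4 to 14.4 FPKM in wild-type TC1 cells. All but Egfl7, 7 of its 8 genes with Pecam1, Cdh5 and Kdr among them, were below 1 FPKM in every sgNAT10 library. In the wild-type libraries 5 were below 1 FPKM throughout, and Pecam1 and Cdh5 were not among these. The part of endothelial transcripts in the Id1 result was not tested. The group means closest to Id1 in pattern, by the measure used for Grem1, were those of Prrg4, Zbtb7c and Abcb1b, at 0.26, 0.37 and 0.39. Abcb1b, a multidrug efflux transporter, averaged 246 FPKM in sgNAT10 TC1 cells and 19.2 FPKM in wild-type TC1 cells.

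Id1 has 2 listed coding transcripts, and their shares shifted in TC1 cells. The transcript of 1160 bases, ENSMUST00000109824, took 25.0%, 28.0% and 24.6% of the Id1 estimated counts in sgNAT10 TC1 cells and 13.5%, 15.3% and 18.3% in wild-type TC1 cells. The groups did not overlap. In tumours the shares were 20.3%, 11.9% and 17.0% with sgNAT10 and 20.3%, 14.9% and 18.1% in wild type, and in MCA205 cells 13.1%, 9.82% and 11.6% with sgNAT10 and 8.65%, 12.6% and 7.66% in wild type. Shares overlapped in both of these settings and were not tested.

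Id3 rose with Id1 in TC1 cells. Its levels were 88.6, 82.9 and 80.5 FPKM with sgNAT10 and 14.1, 19.9 and 17.6 FPKM in wild type. The groups were apart, and the rise was 2.21 ± 0.14 on the log2 scale (adjusted p = 7.17e-05), or 4.63-fold. In MCA205 cells Id3 was at 8.77, 7.46 and 8.71 FPKM with sgNAT10 and 9.28, 9.35 and 9.49 FPKM in wild type, a log2 difference of -0.14 ± 0.10 that was not called (adjusted p = 0.308) although no libraries overlapped. Tumours had 14.7, 10.9 and 9.87 FPKM with sgNAT10 and 5.04, 6.54 and 13.3 FPKM in wild type. Wild-type tumour 3 reached into the range of the sgNAT10 tumours, and the log2 difference of 0.44 ± 0.33 was not called (adjusted p = 0.375). Without that library it was 0.88 with an adjusted p of 0.0362. The Id3 effect differed by -2.41 ± 0.18 between MCA205 and TC1 cells (adjusted p = 3.56e-06) and by -1.84 ± 0.38 between tumours and TC1 cells (adjusted p = 0.00447).

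Id2 followed neither of its relatives. In MCA205 cells it had 2.50, 2.12 and 2.89 FPKM with sgNAT10 and 10.1, 9.42 and 12.2 FPKM in wild type. Every sgNAT10 library was below every wild-type library, and Id2 fell by 2.06 on the log2 scale (SE 0.16; adjusted p = 0.000102), a 4.17-fold lower level, while Id1 rose in the same libraries. TC1 cells had 9.75, 12.9 and 14.4 FPKM with sgNAT10 and 8.87, 13.7 and 8.51 FPKM in wild type, and tumours 19.0, 15.4 and 19.0 FPKM with sgNAT10 and 17.2, 9.71 and 13.7 FPKM in wild type. Both pairs overlapped, with log2 differences of 0.35 ± 0.26 (adjusted p = 0.33) and 0.23 ± 0.20 (adjusted p = 0.453). The Id2 effect differed by -2.47 ± 0.33 between MCA205 and TC1 cells (log2, adjusted p = 0.000178).

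The Id2 values in TC1 libraries turn on 1 transcript. ENSMUST00000221761, of 1969 bases, was given 0, 493 and 451 estimated counts in sgNAT10 TC1 cells and 0, 0 and 4 in wild-type TC1 cells. In tumours it had 0, 679 and 0 with sgNAT10 and 0, 468 and 455 in wild type. A TC1 library thus held 4 counts or fewer of it, or 451 or more. Without it the log2 difference in TC1 cells was -0.13 (adjusted p = 0.677), so no direction is given for Id2 there.

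The genes of the inhibitory SMADs are BMP targets as the Id genes are. Smad7, whose product also inhibits TGF-beta receptors, rose in TC1 cells with 7.90, 9.32 and 8.63 FPKM with sgNAT10 against 4.80, 4.63 and 4.82 FPKM in wild type. The groups were apart, and the rise was 0.82 ± 0.08 on the log2 scale (adjusted p = 0.000327), or 1.76-fold. In MCA205 cells Smad7 had 4.63, 4.08 and 4.18 FPKM with sgNAT10 and 5.08, 4.84 and 5.25 FPKM in wild type. The sgNAT10 libraries lay below the wild-type ones, and the log2 difference of -0.22 ± 0.08 was not called by edgeR (adjusted p = 0.0709) but was by DESeq2 (adjusted p = 0.0108). Tumours overlapped, at 3.71, 3.57 and 3.91 FPKM with sgNAT10 and 4.19, 4.19 and 3.03 FPKM in wild type (log2 -0.14 ± 0.20, adjusted p = 0.636). The Smad7 effect differed by -1.09 ± 0.12 between MCA205 and TC1 cells (adjusted p = 6.44e-05) and by -1.03 ± 0.22 between tumours and TC1 cells (adjusted p = 0.00547).

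Smad6, whose product blocks BMP receptors and SMAD1, fell in MCA205 cells. It had 1.59, 2.02 and 2.29 FPKM with sgNAT10 and 2.70, 3.32 and 3.56 FPKM in wild type. The groups were apart, the log2 difference was -0.69 ± 0.17 (adjusted p = 0.0152), and the call was lost without wild-type library 3 (adjusted p = 0.0586). TC1 cells overlapped at 1.44, 2.17 and 2.11 FPKM with sgNAT10 and 2.00, 1.82 and 1.14 FPKM in wild type, as did tumours at 0.954, 0.838 and 0.661 FPKM with sgNAT10 and 0.657, 1.10 and 1.39 FPKM in wild type. Neither log2 difference, 0.16 ± 0.27 and -0.48 ± 0.29, was called (adjusted p = 0.691 and 0.275). The Smad6 effect differed by -0.91 ± 0.33 between MCA205 and TC1 cells without being called (adjusted p = 0.054).

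Across the remaining pathway, 71 other genes were listed by role. In TC1 cells 58 of them were tested, 9 rose and 17 fell. These are 15.5% and 29.3%, beside 15.9% higher and 22.0% lower over all genes tested, against which the counts by role for TC1 cells below are to be read as well. That background moved with the scaling. With RLE factors the TC1 cell calls over all genes were 3389 higher and 3417 lower, against 2991 higher and 4135 lower with TMM factors. The median log2 difference of all genes moved to -0.01 from -0.08. Without wild-type library 2 the calls among the listed pathway genes were 17 in place of 26. Of the 15 secreted antagonists and modulators tested, 6 fell and 0 rose by edgeR, with 0 higher at an unadjusted p under 0.05 and 0 by DESeq2 or limma-trend. Their median log2 difference was -0.25, beside -0.08 over all genes. Fst, the gene for the activin and BMP binder follistatin, had 6.92, 6.37 and 7.37 FPKM with sgNAT10 and 22.5, 31.9 and 30.4 FPKM in wild type. It fell by 2.05 on the log2 scale (SE 0.16; adjusted p = 0.000152). Crim1, which tethers BMPs at the cell surface, fell by 1.15 (adjusted p = 0.00146), Fstl3 by 1.02 (adjusted p = 0.00452) and Fstl1 by 0.90 (adjusted p = 0.00172). Bmper fell by 1.14 and Chrd fell by 1.84, with adjusted p of 0.00954 and 0.04, and neither passed 1.29 FPKM in any wild-type library. Chrd was named after its values were seen, here and below, as was Bmper in TC1 cells. The Chrd call in TC1 cells was lost without any 1 of the libraries other than sgNAT10 library 1 (adjusted p = 0.0555 to 0.115).

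Of 11 receptors and co-receptors tested in TC1 cells, 1 rose and 3 fell. The co-receptors Rgma and Rgmb fell by 1.25 and 0.91 on the log2 scale (adjusted p = 0.0027 and 0.000538) and the type II receptor gene Bmpr2 by 0.26 (adjusted p = 0.0182). The riser was Bmpr1b, at 0.109, 0.0994 and 0.0951 FPKM with sgNAT10 and listed at 0 in all 3 wild-type libraries, which was named after its values were seen. Smad1 fell by 0.38 and Smad4 by 0.22 (adjusted p = 0.00243 and 0.0317), 2 of the 4 SMAD transducers. The small falls of Bmpr2 and Smad4 were not called by DESeq2, limma-trend or edgeR with RLE factors, with adjusted p of up to 0.276 and 0.496 over the alternatives, and Smad1 lost its call without sgNAT10 library 3 (adjusted p = 0.051). Among 8 intracellular inhibitors 4 rose and 2 fell. Tob1, a transcriptional inhibitor of BMP SMADs, rose by 1.07 (adjusted p = 0.00111), and the ubiquitin ligase genes Smurf2 and Smurf1 fell by 0.96 and 0.57 (adjusted p = 0.000161 and 0.00169).

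Of 11 other target genes tested in TC1 cells, 3 rose and 1 fell. The homeobox gene Dlx2 had 23.5, 22.4 and 21.4 FPKM with sgNAT10 and 9.48, 10.1 and 11.4 FPKM in wild type, a rise of 1.05 ± 0.10 (log2, adjusted p = 0.00038). Gata2 rose by 0.89 (adjusted p = 7.32e-05) and Tbx3 by 0.85 (adjusted p = 0.000134), while the bone factor gene Runx2 fell by 0.73 (adjusted p = 0.000323). Of the 3 helix-loop-helix partners of ID proteins, Tcf4 rose by 0.34 and Tcf3 and Tcf12 fell by 0.38 and 0.27. Their adjusted p were 0.0195, 0.0125 and 0.0062. Tcf4 lost its call without wild-type library 2, Tcf3 without sgNAT10 library 2 or 3 or wild-type library 2 or 3, and Tcf12 without any 1 of the libraries other than sgNAT10 library 1, with adjusted p of up to 0.154, 0.105 and 0.138 over the alternatives.

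In MCA205 cells 52 of the 71 genes were tested, 20 rose and 9 fell. These are 38.5% and 17.3%, beside 21.2% higher and 19.4% lower over all genes tested, the background for each role in this line. Among receptors and co-receptors 4 rose and 1 fell of 9. Eng, the endothelial co-receptor endoglin, had 19.2, 18.5 and 19.6 FPKM with sgNAT10 and 8.75, 8.81 and 7.85 FPKM in wild type, a rise of 1.20 ± 0.05 (log2, adjusted p = 5.84e-06). The type I receptor gene Bmpr1a fell by 0.62 (adjusted p = 0.00144). Intracellular inhibitors rose in 6 of 8, with 1 fall, and Smurf1 rose by 1.01 (adjusted p = 8.22e-06), the reverse of its fall in TC1 cells, with a difference of effects of 1.53 (adjusted p = 1.27e-06).

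Of 12 secreted antagonists and modulators tested in MCA205 cells 3 rose and 2 fell, where none rose in TC1 cells. Chrd, encoding the BMP binder chordin, had 0.890, 0.713 and 0.988 FPKM with sgNAT10 and 0.0400, 0.174 and 0.201 FPKM in wild type (log2 2.65 ± 0.54, adjusted p = 0.00726), and its effect was 4.42 ± 0.87 higher in MCA205 than in TC1 cells (adjusted p = 0.0023). Bmper fell in both lines, in MCA205 cells by 3.64 on the log2 scale (SE 0.22; adjusted p = 3.41e-05), and the effects differed by -2.56 (adjusted p = 0.000117). Of the target genes 2 rose and 3 fell of 11, with log2 differences of 0.89 for Tbx3 (adjusted p = 1.11e-05) and -0.66 for Gata2 (adjusted p = 0.000272). Tcf4 fell by 0.90 (adjusted p = 4.15e-06).

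In tumours, of 54 genes tested 0 rose and 4 fell by edgeR, with 5 higher at an unadjusted p under 0.05. The fallers are 7.41%, beside 9.72% lower and 7.65% higher over all genes tested. DESeq2 called 3 as higher, and limma-trend called 1 on log2(FPKM + 1) and 0 on log2(FPKM + 0.1). The count of 4 was 0 without sgNAT10 tumour 2 or 3, 1 without sgNAT10 tumour 1 or wild-type tumour 2, 8 without wild-type tumour 1 and 11 without wild-type tumour 3. The 4 were Chrd, Dlx2, Gata2 and Tcf3. The call of Chrd was lost whichever library was left out, and that of Tcf3 without any 1 of the sgNAT10 tumours or without wild-type tumour 2. Dlx2 had 2.63, 2.61 and 2.95 FPKM in sgNAT10 tumours and 10.4, 8.29 and 5.08 FPKM in wild-type tumours (log2 -1.76 ± 0.34, adjusted p = 0.0167), a call lost without any 1 of the sgNAT10 tumours or without wild-type tumour 2. It rose in TC1 cells, and the effects differed by -2.88 ± 0.39 (adjusted p = 0.000316). Gata2 was likewise lower in tumours, at 4.33, 3.03 and 3.62 FPKM with sgNAT10 and 7.52, 7.03 and 6.52 FPKM in wild type, and higher in TC1 cells, a difference of effects of -2.12 ± 0.20 (adjusted p = 3.45e-05). The Gata2 call in tumours was lost without sgNAT10 tumour 2 or 3 (adjusted p = 0.0508 to 0.0576).

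**Figure D4:**
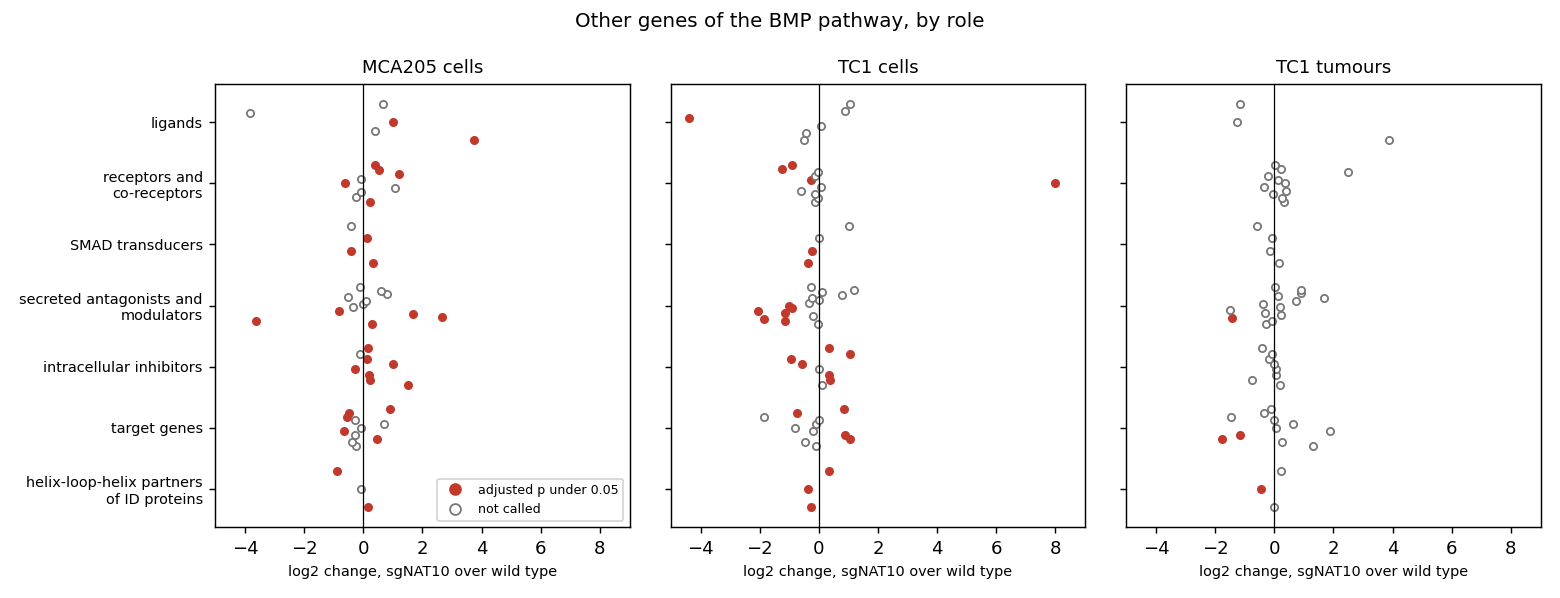
Log2 difference of sgNAT10 over wild type for the other genes of the BMP pathway that were tested, 1 dot a gene, by role (rows) and setting (panels); filled dots are genes at an adjusted p under 0.05. In TC1 cells the filled dots of the secreted antagonists lie left of 0, in MCA205 cells on both sides, and tumours have 4 filled dots, all left of 0.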

How the data were processed

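Total RNA was purified on columns and made into 18 Illumina libraries, 3 for each of 6 groups, as the labels' protocols state. Trim Galore, FastQC, featureCounts and Bowtie2 and the mm10 build appear in the submitters' processing notes, without versions or roles. Which program made the values is not given here by any source. Each of the 3 deposited tables lists transcripts with FPKM, scaled by the authors to length and library size, and estimated counts, per the file headers. As deposited, the estimated counts held only whole numbers, so rounding changed none. In each library they equalled FPKM times length times 1 factor within 1.5 counts for nearly all transcripts, with a lowest share of 98.99%. Columns named KO were taken as the sgNAT10 libraries, and 0 columns were without a sample. Transcripts were summed per gene, so reads that antisense, overlapping or related genes share were split as the authors' counting did it, with no strand setting known. Identifiers matched GENCODE M21 for 99.7% of genes.

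The estimated counts of the 6 libraries of a table were fitted with edgeR 4.0.16 (quasi-likelihood, TMM, default expression filter, Benjamini-Hochberg over all genes kept; R 4.3.3). Differences of effects were interaction contrasts over 12 libraries. Levels are FPKM, as means ± SD of 3 libraries. Alternatives were RLE factors, library size alone, no filter, a replicate block, each library left out, DESeq2 1.42.0, limma-trend 3.58.1 on log2(FPKM + 1) with and without a filter and on log2(FPKM + 0.1), and MCA205 cells without wild type 1 and sgNAT10 2. A fit of Id2 without 1 transcript was added after its values were seen. The edgeR and DESeq2 steps were tested on simulated counts.

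Separate cultures or animals are named in no label, so p-values measure the spread between these libraries, which may be technical. Replicates were no duplicates, since their lowest chi-square per gene was 10.9. Members, lists and tests were chosen with earlier results of these data known. Named were Nat10, all 10 members, up to 4 called genes per role and comparison with the smallest p and at least 1 FPKM in a group, called neighbours, and the 3 genes nearest in pattern to Grem1, Id1 and Bmp4 among those with at least 5 FPKM in a group. A selection is printed. Floors cover counting error alone, while the SE of the edgeR fits and the SD of levels also hold the spread between these libraries.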

Additional observations from a re-analysis of the deposited data

Results flagged for a closer look

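All values here are differences of the sgNAT10 effect between 2 settings on the log2 scale, each tested by edgeR as an interaction at an adjusted p under 0.05. A positive value means a higher effect in the setting named first. The 2 families share the 6 TC1 cell libraries, so they are not independent.

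Between MCA205 and TC1 cells, Grem1 (8.25), Fmn1 (3.07) and, among the members, Bmp2 (-6.29), Id2 (-2.47), Id3 (-2.41), Id1 (-2.37) and Smad7 (-1.09) differed. Of receptors, co-receptors and SMADs, the values were 1.71 for Rgma, 1.27 for Eng, 1.23 for Rgmb, 0.67 for Smad1, -0.25 for Smad4 and -0.74 for Bmpr1a. Of antagonists and inhibitors, they were 1.53 for Smurf1, 1.05 for Fstl3, 1.04 for Smurf2, 0.84 for Fstl1, -0.35 for Skil, -1.24 for Tob1 and -2.56 for Bmper. Of targets and ID partners, they were 0.37 for Tcf12, -0.63 for Dlx2, -1.29 for Tcf4 and -1.60 for Gata2.

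Between TC1 tumours and TC1 cells, Bmp5 (7.77), Grem1 (6.24) and Fmn1 (3.17) had higher effects in tumours, and Id1 (-3.10), Id3 (-1.84), Bmp2 (-1.43) and Smad7 (-1.03) had lower ones. Among the other genes the values were 1.40 for Rgma, 1.02 for Fstl1, 0.88 for Rgmb, 0.69 for Smurf2, 0.32 for Bmpr2, -1.03 for Tbx3, -1.21 for Tob1, -2.12 for Gata2 and -2.88 for Dlx2. Tumours hold host cells that cultures lack, and what part these take in the differences was not tested.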

How the results depend on the processing

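In TC1 cells all 6 calls among the members were made under every alternative, as were the 6 called differences of effects in each family under every alternative run for them. The count in MCA205 cells was 5, and 3 to 5 with 1 library left out. In tumours it was 2, fell to 1 with no filter and in all 3 limma-trend fits, and was 1 to 2 with 1 library left out, since Bmp2 was lost. Other pathway genes called were 29 in MCA205 cells (23 to 28 with 1 library left out), 26 in TC1 cells (17 to 26, with 17 without wild type 2) and 4 in tumours (0 to 11). In tumours this count was 2 with library size alone, with no filter and with limma-trend on log2(FPKM + 0.1), and 12 with DESeq2.

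With the replicate block the members called were 4 in MCA205 cells, where Bmp2 was lost (adjusted p = 0.071), 6 in TC1 cells and 1 in tumours, where Bmp2 was lost too (adjusted p = 0.135) and 1 other pathway gene was called. Same-numbered libraries deviated together with correlations of -0.51 to 0.15, in 1 of 9 pairs over 0.1. No library correlated best with its own number, so no pairing by number was found. Such correlations cannot show that same-numbered libraries were prepared apart.

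Signs turned for genes that were not called by edgeR. Bmp5 in MCA205 cells was 0.18, with -0.15 to 0.78 when 1 library was left out (-0.15 without sgNAT10 3, -0.039 without wild type 1 and -0.034 without wild type 3) and -0.0401 without wild type 1 and sgNAT10 2 together. Id1 in tumours, -0.12, was 0.00603 with limma-trend on log2(FPKM + 1), with and without a filter, and 0.00705 on log2(FPKM + 0.1). With 1 library left out, Smad7 in tumours was -0.33 to 0.00891 (without wild type 1) and Fmn1 in tumours -0.0526 (without wild type 1) to 0.22. Id2 in TC1 cells was -0.13 without ENSMUST00000221761. The Id2 difference between tumours and TC1 cells, -0.20, was -0.45 to 0.0474 with 1 library left out (the highest without tumour wild type 1) and 0.41 without that transcript. The cause of these shifts was not tested beyond the construction of each alternative. Depth limits Nog, Bmp2 and Bmp4 in MCA205 cells and Bmp5 in wild-type tumours, which rest on few counts.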

Other observations

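Bmp4 had its own companions in pattern over the 6 groups. The 3 genes with the closest group means, by root mean square difference in centred log2(FPKM + 1), were Igkv1-117, Slc22a17 and Zfp105, at 0.09, 0.11 and 0.12. Igkv1-117, an immunoglobulin light chain segment, averaged 3.88 FPKM in sgNAT10 TC1 cells and 8.65 FPKM in wild-type TC1 cells, and at most 0.609 FPKM in each of the other 4 groups. Slc22a17 averaged 3.46 FPKM in sgNAT10 TC1 cells and 7.47 FPKM in wild-type TC1 cells. The likeness is a description over 6 means that share libraries with the Bmp4 values.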
